A study of Homo sapiens with 5 samples.

Results

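Collagen-modifying enzymes were followed through 10 genes chosen by name, out of 64837 entries in the count files: the collagen prolyl 4-hydroxylase α subunits P4HA1, P4HA2 and P4HA3, the lysyl hydroxylases PLOD1, PLOD2 and PLOD3, and the lysyl oxidases LOX, LOXL1, LOXL2 and LOXL4. They were measured by RNA-Seq in NCI-H209, an established line of human small-cell lung cancer (SCLC) cells. The control group was 3 libraries of untreated NCI-H209 cells, and the co-cultured group was 2 libraries of NCI-H209 cells kept for 24 h below a Transwell insert holding human brain microvascular endothelial cells (HBMECs), so that medium but not the culture surface was shared. All libraries came from this single tumor line grown in RPMI-1640 with serum, and each was made from rRNA-depleted RNA with a directional kit. The labels do not say that libraries of a group came from separate cultures, so p-values measure the spread between these libraries, which may be technical.

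Collagen is modified at several steps before it carries load. Inside the endoplasmic reticulum, prolyl 4-hydroxylases turn proline into hydroxyproline, which holds the triple helix together at body temperature, and lysyl hydroxylases turn lysine into hydroxylysine, to which sugars are attached and from which the more stable cross-links are built. Both enzyme families need iron, 2-oxoglutarate, ascorbate and molecular oxygen. Outside the cell, the copper-dependent lysyl oxidases oxidize lysine and hydroxylysine in collagen and elastin, which starts cross-linking. Several of these genes are known targets of hypoxia-inducible factor 1 (HIF-1) in other cells, and tumors with much PLOD2 or LOX tend to have a stiff, fibrillar matrix. The short DNA core that HIF-1 binds is ACGTG or GCGTG.

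The identity of the cells was checked on marker lists. Of 11 tested neuroendocrine SCLC markers, 4 rose in co-culture (among them SYP and ENO2, with log2 fold changes of 0.57 and 0.66) and 1, DLL3, fell, by the edgeR test used throughout. Of all genes tested, 18.4% rose and 15.0% fell by the same test. INSM1 was at 498 CPM (counts scaled to a common library total) or more in every library, and the defining markers CHGA and NEUROD1 were at 0 or 1 and at 20 to 35 counts. The 20 endothelial markers summed to 18.6 to 28.0 CPM in control and 24.5 CPM in both co-cultured libraries. Of these, 9 were tested and 2 rose, ESAM and ICAM2, with log2 fold changes of 2.14 and 0.45. The other 7 tested were not called: PECAM1 (log2 fold change 0.83), CDH5 (0.41), EGFL7 (0.38), VWF (-0.09), ERG (-0.27), KDR (-1.30) and TEK (-1.85). KDR and TEK were highest in control replicates 1 and 2, with 37 and 27 reads for KDR and 31 and 24 for TEK. Control replicate 3 held 2 and 0, co-cultured replicate 1 held 12 and 6, and co-cultured replicate 2 held 4 and 3. Among the 20, 7 were at 3 counts or fewer in every library, and MMRN1 and PLVAP were at 0. The 12 fibroblast and pericyte markers summed to 20.9 to 31.0 CPM in control and 40.4 to 42.5 CPM in co-culture, and of 9 tested THY1 and RGS5 rose, with log2 fold changes of 1.49 and 0.61. These marker counts moved with single libraries: with each left out in turn, 0 to 2 endothelial, 1 or 2 fibroblast and 2 to 6 neuroendocrine markers rose. Without control replicate 3, 2 endothelial and 4 fibroblast markers were called lower, and the fall of DLL3 was lost without either co-cultured library. The defining fibroblast markers PDGFRA, PDGFRB, DCN and LUM had 12 to 39 counts in control replicates 1 and 2 and 0 to 3 counts in the other 3 libraries, so they were near 0 in the co-cultured libraries. Without control replicate 1 or 2, the log2 fold change of LOX, a low gene, was 1.66 or 1.73. The unmapped share of reads, 8.13% to 8.48% in control and 15.9% and 16.8% in co-culture, also moved with the groups, and its part was not tested. Libraries held 17317045 to 19157348 counts on genes in control and 15457071 and 18918787 in co-culture, and 92.3% to 93.1% of them lay on the expected strand.

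Of the 10 genes, 7 rose in the co-cultured cells (PLOD2, LOX, PLOD1, P4HA2, P4HA1, LOXL1 and PLOD3), 1 fell (LOXL4), and P4HA3 and LOXL2 did not pass the test. The rises ran from 1.47-fold for PLOD3 to 3.62-fold for PLOD2. Among the hydroxylases 5 of 6 rose, and P4HA3, the exception, was listed at 20 to 41 counts per library. Differences were tested with edgeR's quasi-likelihood test over 20360 genes, and a gene was called when its Benjamini-Hochberg adjusted p was under 0.05. All 10 genes passed the filter on low counts. In these bulk samples fewer cells that express a gene and less of its RNA per cell cannot be told apart. Among all genes tested, 18.4% were called higher and 15.0% were called lower in the co-cultured cells. With each control library left out in turn 7 genes were again called higher, and 5 were without co-cultured replicate 2 and 4 without co-cultured replicate 1, where the shares of all genes were 8.94% and 8.21%. The fall of LOXL4 was called without control replicate 1 or 2 and lost without control replicate 3 or either co-cultured library. The 10 genes included 5 that rose by more than 1 on the log2 scale with an unadjusted p under 0.05, the criterion for differentially expressed genes (DEGs), which 5.44% of all genes met in that direction. LOXL4 had an unadjusted p under 0.05 at a smaller fold, so the number meeting it downward was 0 by edgeR and by DESeq2, against 5.01% of all genes. The upward number was 4 without control replicate 1 and 3 without co-cultured replicate 1. Both co-cultured libraries lay above all controls for 7 genes and below them for 1, against 29.4% and 30.0% of all genes. The median log2 fold change of the 10 genes was 0.95, beside -0.03 for all genes tested.

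**Figure D1:**
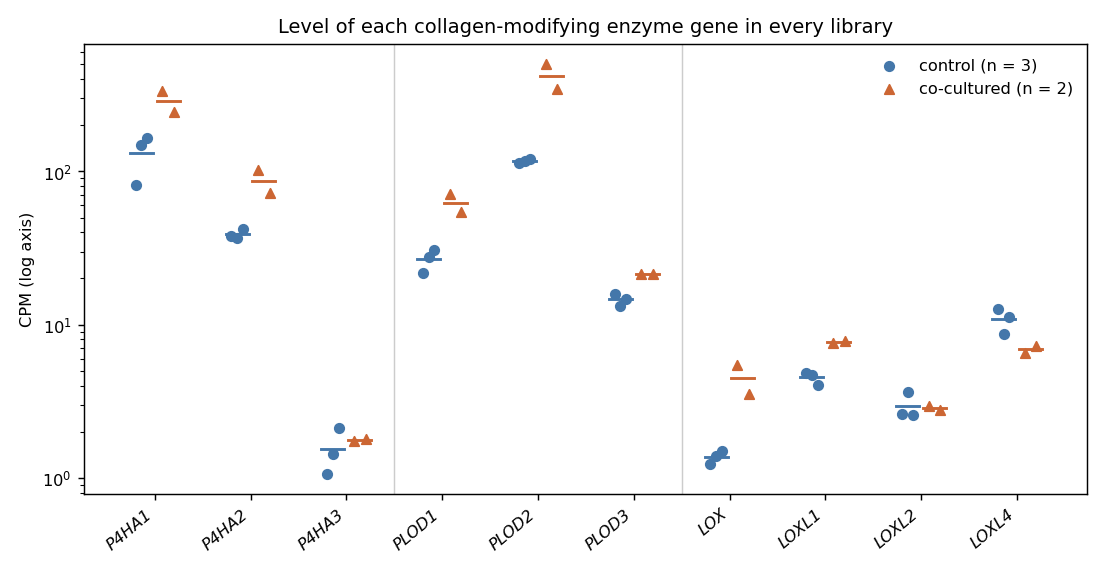
Level of each gene in every library on a log axis in CPM (counts scaled to a common library total), with 1 point per library, circles for the 3 control and triangles for the 2 co-cultured libraries, and a line at each group mean. The co-cultured triangles lie above all control circles for 7 genes, below them for LOXL4, and among them for P4HA3 and LOXL2.

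P4HA1 and P4HA2 encode alternative catalytic subunits of collagen prolyl 4-hydroxylase, which work as tetramers with the protein disulfide isomerase P4HB. P4HA1 (chr10:73007217-73096974, minus strand, GRCh38) had 81.8, 148 and 165 CPM in control and 334 and 243 CPM in co-culture. The groups did not overlap, but control replicate 1 was well below the other 2 controls. It rose 2.19-fold (log2 fold change 1.13, standard error 0.25, adjusted p = 0.00774, edgeR). Without control replicate 1 it was 0.89 (adjusted p = 4.65e-06), and without co-cultured replicate 1 it was 0.89 with an adjusted p of 0.105 from the same edgeR test, so the call was lost. P4HA2 (chr5:132191838-132295315, minus strand) had 37.7, 36.9 and 42.0 CPM in control and 102 and 71.8 CPM in co-culture. Its controls lay close together and both co-cultured libraries were far above them. It rose 2.23-fold (log2 fold change 1.16, standard error 0.14, adjusted p = 0.000355, edgeR). P4HA3, the third subunit, had 1.06, 1.44 and 2.10 CPM in control and 1.75 and 1.78 CPM in co-culture. The co-cultured values fell inside the control range, and the log2 fold change was 0.20 with a 95% interval from -0.55 to 0.95 (adjusted p = 0.681, edgeR). Without control replicate 1 it was -0.0062. P4HA3 (chr11:74235801-74311657, minus strand) shares 166 exonic bases with PPME1 on the opposite strand. Of the reads on the P4HA3 exons, 84.9% to 92.5% lay on that opposite strand. With counts that ignored strand, in which reads on more than 1 gene are dropped, the controls held 79, 75 and 98 P4HA3 counts, the co-cultured libraries held 68 and 46, and its log2 fold change was -0.34 (adjusted p = 0.243, edgeR).

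Per kb of exon, P4HA1 held most of the prolyl 4-hydroxylase mRNA in both groups. Its share of the summed CPM per kb of the 3 subunits was 84.9%, 91.1% and 90.7% in control and 89.7% and 89.9% in co-culture. The means, 88.9% ± 3.46 (SD, n = 3) and 89.8% ± 0.10 (SD, n = 2), differed by less than the spread between controls (two-sided exact permutation test, p = 1). P4HA2 made up 10.3% ± 3.41 (SD, n = 3) of the family without and 9.78% ± 0.20 (SD, n = 2) with HBMECs. That share depended on the length used, being 20.9% and 20.2% when the length of the principal transcript replaced the union of annotated exons. The summed level of the family went from 47.6 ± 14.6 (SD, n = 3) to 104 ± 23.2 CPM per kb (SD, n = 2), a ratio of 2.19. Its exact permutation p was 0.1, the smallest that 3 libraries against 2 can give. P4HA1 and P4HA2 rose 2.19-fold and 2.23-fold, and the shares of P4HA3, 0.81% and 0.43%, were small in both groups.

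The RefSeq promoter window of P4HA1, from 250 bases before to 50 bases after the start, held a single core match, on the strand opposite to the gene and 86 bases before the start. It is shown with its flanks because P4HA1 is the most abundant gene of the family. Capitals mark the match here and in the sequences of the other genes.
P4HA1, chr10:73096935-73096964, minus strand, GRCh38.p14: tgtgatcgagctCACGTagcgagggctgca
No match was found in the window of P4HA2.

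PLOD2 encodes lysyl hydroxylase 2, which hydroxylates the short telopeptides at the ends of collagen and so sets the type of cross-link formed. It had the largest rise of the 10 genes. PLOD2 (chr3:146069440-146163653, minus strand) had 113, 118 and 120 CPM in control and 500 and 346 CPM in co-culture. The 3 controls were almost equal, and the lower co-cultured library was still far above them. The log2 fold change was 1.86 (standard error 0.13, adjusted p = 4.37e-05, edgeR), and PLOD2 ranked 84 by p among the 20360 genes. With each library left out in turn, it ran from 1.57 to 2.10 and stayed called. PLOD1 encodes lysyl hydroxylase 1, which acts on the helical part of collagen and whose loss causes kyphoscoliotic Ehlers-Danlos syndrome. PLOD1 (chr1:11934205-11975538, plus strand) had 21.7, 27.8 and 30.6 CPM in control and 71.1 and 54.0 CPM in co-culture. It rose 2.35-fold (log2 fold change 1.23, standard error 0.15, adjusted p = 0.000506, edgeR), with no overlap between the groups. PLOD3 encodes lysyl hydroxylase 3, which also transfers sugars onto hydroxylysine and is needed for basement membrane collagen. PLOD3 (chr7:101205977-101218420, minus strand) had 16.0, 13.2 and 14.8 CPM in control and 21.5 CPM in each co-cultured library. Its rise was the smallest of the 7, at 1.47-fold (log2 fold change 0.55, standard error 0.12, adjusted p = 0.0069, edgeR). Without either co-cultured library the PLOD3 change was about as large (0.56 each), but its adjusted p was 0.0627 or 0.0637 by the same edgeR test.

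PLOD2 held a larger share of its family in both co-cultured libraries than in any control. It held 68.2%, 67.1% and 65.2% of the summed CPM per kb of the family in control and 79.2% and 76.4% in co-culture. The mean share went from 66.8% ± 1.50 (SD, n = 3) to 77.8% ± 1.97 (SD, n = 2), a difference of 11.0 percentage points with groups that did not overlap (exact permutation p = 0.1, the smallest possible). PLOD3 went from 11.3% ± 1.46 (SD, n = 3) to 5.51% ± 1.28 (SD, n = 2) although its own level rose (exact permutation p = 0.1). PLOD1 went from 21.8% ± 2.66 (SD, n = 3) to 16.7% ± 0.68 (SD, n = 2; exact permutation p = 0.2). The summed level of the family was 22.9 ± 1.18 CPM per kb (SD, n = 3) without HBMECs against 70.9 ± 16.5 CPM per kb (SD, n = 2) with them, a ratio of 3.10 (exact permutation p = 0.1).

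The window of PLOD2 held 3 core matches and that of PLOD1 held 2. The bases before the RefSeq start are shown because PLOD2 had the largest rise and PLOD1 had the next largest among the hydroxylases. Both stretches lie outside annotated exons of GENCODE but, since each gene also has transcripts that start farther upstream, inside the annotated gene.
PLOD2, chr3:146161185-146161434, minus strand, GRCh38.p14: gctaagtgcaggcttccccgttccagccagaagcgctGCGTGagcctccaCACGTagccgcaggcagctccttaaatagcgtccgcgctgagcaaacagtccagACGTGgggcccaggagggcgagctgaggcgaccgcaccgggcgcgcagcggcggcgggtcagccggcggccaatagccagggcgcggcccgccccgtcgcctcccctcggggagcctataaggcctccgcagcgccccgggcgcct
PLOD1, chr1:11934467-11934693, plus strand, GRCh38.p14: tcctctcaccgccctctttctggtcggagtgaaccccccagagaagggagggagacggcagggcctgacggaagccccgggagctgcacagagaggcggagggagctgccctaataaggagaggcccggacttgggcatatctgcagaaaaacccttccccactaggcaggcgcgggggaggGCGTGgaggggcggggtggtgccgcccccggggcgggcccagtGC
PLOD1, chr1:11934680-11934709, plus strand, GRCh38.p14: ggcgggcccagtGCGTGgcagcgggacctg
In PLOD2 the matches began 213, 200 and 146 bases before the start, as GCGTG on the strand of the gene, ACGTG on the other strand (read here as CACGT) and ACGTG on the strand of the gene. In PLOD1 both were GCGTG on the strand of the gene, 68 and 25 bases before the start, and the last capitals of the longer PLOD1 stretch begin the match that the short stretch shows whole. The window of PLOD3 held no match.

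**Figure D2:**
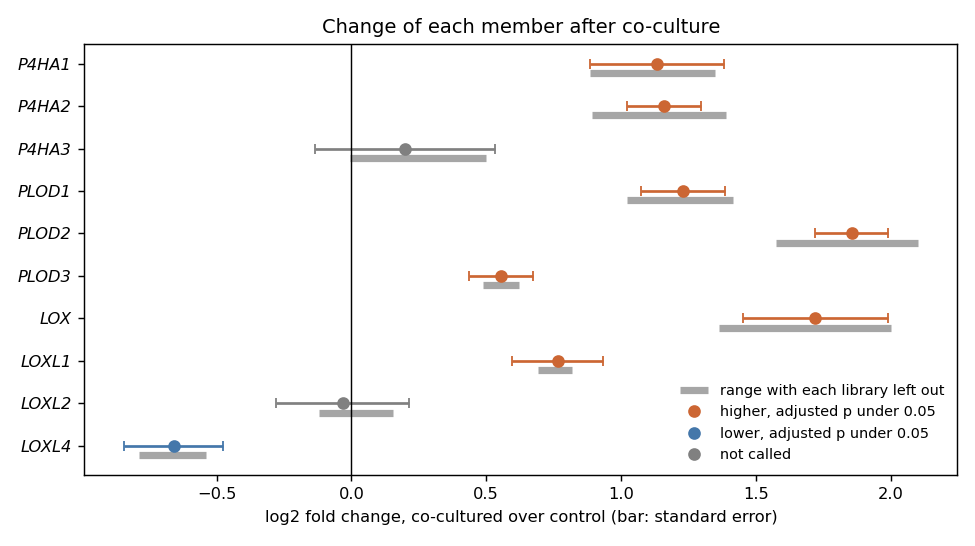
Log2 fold change of each gene, co-cultured over control, with its standard error as a thin bar and the range over fits with each library left out as a grey band. Orange points, the 7 genes that rose, lie right of 0, LOXL4 lies left of 0, and the bands of P4HA3 and LOXL2 reach across 0.

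LOX encodes the founding lysyl oxidase, a secreted enzyme that is released from its proenzyme by BMP1. LOX (chr5:122063195-122078360, minus strand) was a low gene, with 23, 25 and 29 counts in control and 100 and 53 counts in co-culture. In CPM these were 1.22, 1.38 and 1.48 against 5.47 and 3.50, with a clear gap between the groups. LOX rose 3.30-fold (log2 fold change 1.72, standard error 0.27, adjusted p = 0.0015, edgeR). LOX shares 138 exonic bases with SRFBP1 on the opposite strand. The opposite strand held 51.1%, 58.3% and 53.2% of the reads on LOX exons in control and 18.7% and 25.4% in co-culture. In counts it held 24, 35 and 33 against 23 and 18, so it was not higher in co-culture. With counts that ignored strand the log2 fold change of LOX was 0.89 (adjusted p = 0.0147, edgeR).

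LOXL1 encodes a lysyl oxidase that is bound to elastic fibres and is needed to renew them. LOXL1 (chr15:73925989-73952137, plus strand) had 4.84, 4.70 and 4.04 CPM in control and 7.60 and 7.79 CPM in co-culture. Replicates were close in each group, and the rise was 1.70-fold (log2 fold change 0.76, standard error 0.17, adjusted p = 0.00825, edgeR). Without co-cultured replicate 1 or 2 its adjusted p was 0.0636 or 0.0681 by the same edgeR test, at log2 fold changes of 0.79 and 0.75. Its antisense gene LOXL1-AS1, which shares 335 exonic bases with it, had 193, 170 and 258 counts in control and 238 and 203 counts in co-culture, and was not called (log2 fold change 0.27, adjusted p = 0.236, edgeR). The antisense genes of the prolyl 4-hydroxylases were at the floor of 3 counts, with 0 counts of P4HA2-AS1 in every library and 1 count of P4HA3-AS1 in all.

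LOXL4, a member of the subgroup with scavenger receptor domains, was the single gene that fell. LOXL4 (chr10:98247690-98268250, minus strand) had 12.6, 8.74 and 11.2 CPM in control and 6.50 and 7.27 CPM in co-culture. The lowest control lay only slightly above the higher co-cultured library. The log2 fold change was -0.66 (standard error 0.18, adjusted p = 0.0230, edgeR), a ratio of 0.633. It was called in 7 of 12 alternatives. Without co-cultured replicate 1, without co-cultured replicate 2 and without control replicate 3, its adjusted p was 0.173, 0.0962 and 0.0623, and with counts that ignored strand the log2 fold change was -0.28 (adjusted p = 0.166, edgeR throughout). The opposite strand held 30.9% to 51.0% of the reads on LOXL4 exons, where the antisense gene AL139241.1 shares 152 exonic bases. LOXL2, of the same subgroup and known for its part in epithelial-mesenchymal transition, had 2.61, 3.65 and 2.56 CPM in control and 2.95 and 2.77 CPM in co-culture. These values overlapped, and the log2 fold change was -0.03 with a 95% interval from -0.59 to 0.53 (adjusted p = 0.932, edgeR). Without control replicate 2, the highest, it was 0.15. LOXL2 shares 120 exonic bases with ENTPD4 on its own strand and 178 with AC090197.1 on the other strand, so its low count is uncertain.

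LOX and LOXL1 rose while LOXL4 fell, and the summed level of the 4 lysyl oxidases among the 10 genes changed little. It was 4.98 ± 0.447 CPM per kb (SD, n = 3) without HBMECs against 5.31 ± 0.086 CPM per kb (SD, n = 2) with them, a ratio of 1.07 (exact permutation p = 0.4). The ratio was 1.14 with principal transcript lengths and 1.11 without division by length (exact permutation p = 0.2 each). With these, both co-cultured libraries lay above all controls. LOXL3, a further lysyl oxidase, was not followed, so the sum and the shares leave it out. The single shares lay farther apart. LOXL4 held 63.2%, 52.3% and 62.7% of the sum of these 4 genes in control and 33.1% and 37.9% in co-culture. With principal transcript lengths its mean share was 49.4% in control and 27.6% in co-culture. The share of LOXL1 went from 25.1% ± 2.85 (SD, n = 3) to 39.9% ± 1.37 (SD, n = 2), and that of LOX from 4.99% ± 0.82 (SD, n = 3) to 15.2% ± 4.47 (SD, n = 2). These 3 shares did not overlap between the groups and had an exact permutation p of 0.1 each, the smallest possible. With counts that ignored strand, the difference in share was 5.37 percentage points in place of 10.2 for LOX, 11.4 in place of 14.7 for LOXL1, and -14.3 in place of -23.9 for LOXL4. The share of LOXL2 was 10.5% ± 3.04 (SD, n = 3) and 9.44% ± 0.26 (SD, n = 2; exact permutation p = 1).

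**Figure D3:**
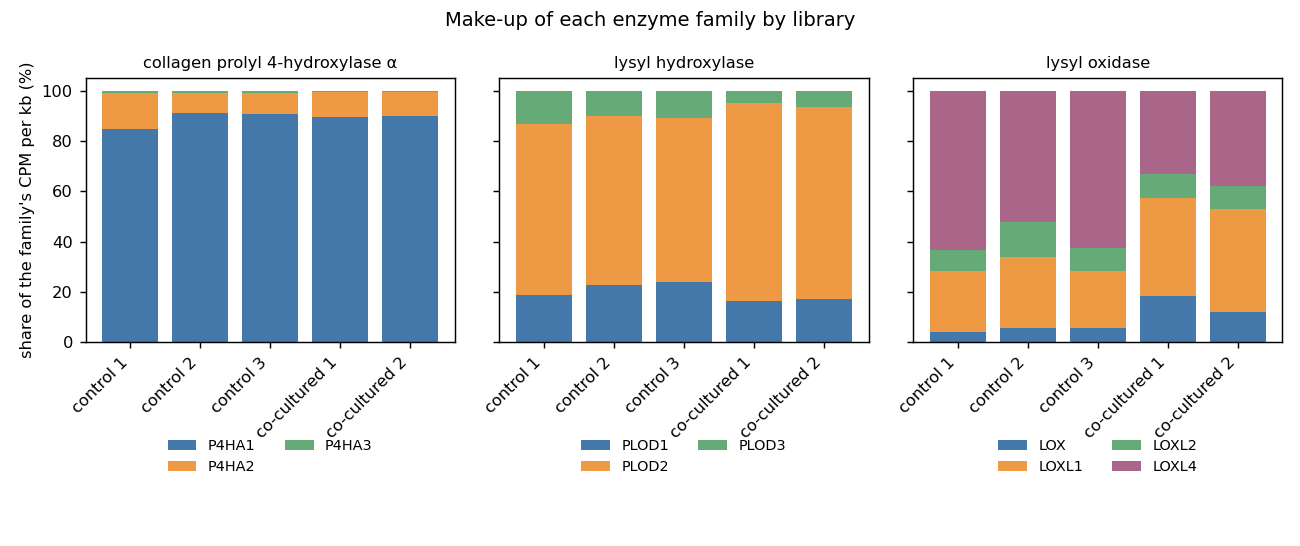
Share of each gene in the CPM per kb of exon summed over the genes of its family that were followed, in percent. There is 1 stacked bar per library and 1 panel per family. LOXL3 was not followed and is left out of the lysyl oxidase panel. P4HA1 fills 84.9% to 91.1% of its family in every library, PLOD2 grows from a mean of 66.8% to 77.8%, and LOXL4 shrinks from a mean of 59.4% to 35.5% as LOX and LOXL1 widen.

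The LOX window held 4 matches, all of them ACGTG. It is shown because LOX had the second largest rise and the most matches. The first stretch ends where the annotated exon begins, and the other sites lie within or across the edge of 5′ exon sequence of GENCODE and are shown with short flanks.
LOX, chr5:122078361-122078509, minus strand, GRCh38.p14: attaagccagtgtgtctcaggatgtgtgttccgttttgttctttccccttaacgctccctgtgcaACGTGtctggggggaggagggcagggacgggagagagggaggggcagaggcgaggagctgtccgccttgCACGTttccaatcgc
LOX, chr5:122078340-122078369, minus strand, GRCh38.p14: tccaatcgcattACGTGaacaaatagctga
LOX, chr5:122078284-122078313, minus strand, GRCh38.p14: gtaactttgcaaACGTGccagaaagtttaa
The matches began 185, 116, 98 and 42 bases before the RefSeq start, the second of them on the other strand. No match was found in the windows of LOXL1 and LOXL4.

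Promoter windows were given by RefSeq for 8 of the 10 genes, not for P4HA3 and LOXL2. Where a gene had several, as LOX did, the one farthest upstream was used. Like those of PLOD1 and PLOD2, the windows of P4HA2, PLOD3 and LOXL1 lay inside the annotated gene. Sequence before starts farther upstream was not searched. ACGTG was found in 3 of the 8 (P4HA1, PLOD2 and LOX) and GCGTG in PLOD1 and PLOD2, so 4 of the 8 held either. Both strands were searched, so a CACGTG would have been counted on each, but no matches overlapped here. Of 35116 windows of the same 300 bases, 21.4% held ACGTG, 36.5% held GCGTG and 48.4% held either. The 4 genes with a match had log2 fold changes of 1.13 to 1.86. Those without were P4HA2 at 1.16, LOXL1 at 0.76, PLOD3 at 0.55 and LOXL4 at -0.66. A match is only a run of letters and is not evidence of binding.

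**Figure D4:**
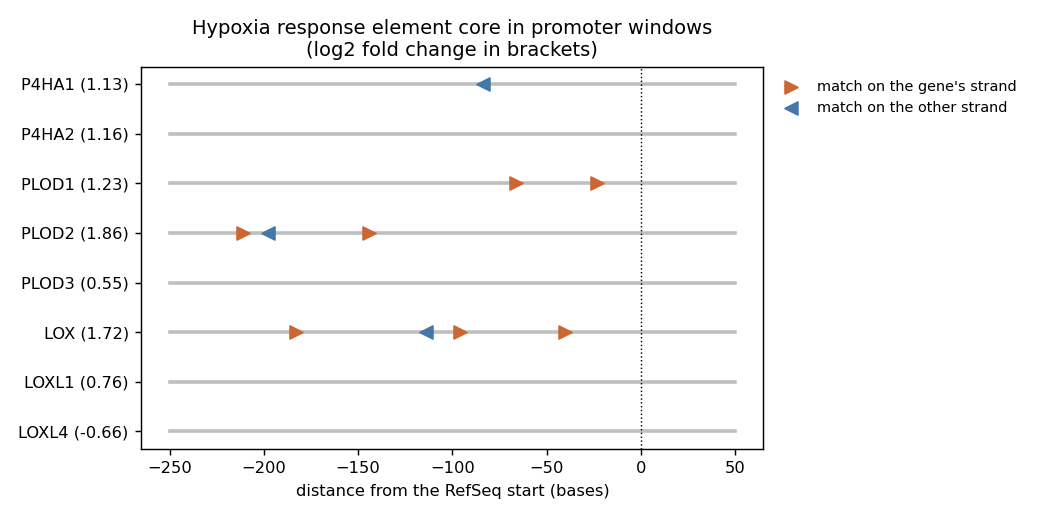
Position of each ACGTG or GCGTG match in the promoter windows of 8 genes, in bases from the RefSeq start, with arrows right for the strand of the gene and left for the other strand, and the log2 fold change in brackets. The 4 LOX and 3 PLOD2 matches, the 2 of PLOD1 and the single match of P4HA1 all lie before the start, and the other 4 lines are empty.

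Levels were compared between genes per kb of exon. In control cells the order of mean CPM per kb was P4HA1 (42.6), PLOD2 (15.3), PLOD1 (5.02), P4HA2 (4.57), LOXL4 (2.97), PLOD3 (2.58), LOXL1 (1.24), LOXL2 (0.515), P4HA3 (0.383) and LOX (0.246). The ranges of PLOD1 and P4HA2 overlapped, as did those of LOXL4 and PLOD3 and those of the neighbours from LOXL2 to LOX. In co-cultured cells P4HA1 (93.4) and PLOD2 (55.3) still led, LOXL4 (1.88) came after PLOD3 (3.80) and LOXL1 (2.12), and LOX (0.808) had moved past LOXL2 (0.502) and P4HA3 (0.441). The order depended on the length used. With principal transcript lengths, P4HA2 (11.6) came before PLOD1 (9.08) and PLOD3 (5.02) before LOXL4 (2.97) already in control, each with separate ranges. In co-culture PLOD2 (113) came before P4HA1 (102), and LOX (0.879) before LOXL2 (0.807), with overlapping ranges in both cases. The most abundant genes were thus the hydroxylases P4HA1 and PLOD2, and the cross-linking enzymes were present at a small fraction of their level.

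The partners of these enzymes were taken from lists. P4HB, the subunit shared by the prolyl 4-hydroxylases, had 432, 360 and 367 CPM in control and 665 and 591 CPM in co-culture. It rose with a log2 fold change of 0.70 (adjusted p = 0.00108, edgeR), beside 1.13 for P4HA1 and 1.16 for P4HA2. Of 22 tested genes of procollagen folding and export, 10 rose, beside 18.4% of all genes, and 12 were not called. Their median log2 fold change was 0.28. The smallest p values were those of SEC24D, a COPII coat subunit used in procollagen export (1.52), TMEM38B, an endoplasmic reticulum channel whose loss causes brittle bones (0.97), and FKBP9, a prolyl isomerase (1.41). SERPINH1, the collagen chaperone HSP47, was at 0.10 (adjusted p = 0.645), and the sugar transferases COLGALT1 and COLGALT2, which act on hydroxylysine, were at 0.14 (adjusted p = 0.210) and 0.61 (adjusted p = 0.557, all edgeR). Without co-cultured replicate 1 the number that rose was 6.

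Of 9 tested genes of copper, ascorbate and iron supply, 4 rose, beside 18.4% of all genes, and 5 were not called. SLC31A1, the copper importer of the plasma membrane, had a log2 fold change of 1.24 and the copper pump ATP7B one of 0.64. ATP7A, the pump that loads lysyl oxidases with copper in the secretory pathway, had 50.1, 48.1 and 51.0 CPM in control and 65.9 and 58.4 CPM in co-culture (log2 fold change 0.32, adjusted p = 0.0182, edgeR). The iron and zinc carrier SLC39A14 rose by 0.48. Among 14 other oxygenases that use 2-oxoglutarate, 6 rose and 2 fell, beside 18.4% and 15.0% of all genes. Those that fell were P4HTM and OGFOD3, with log2 fold changes of -0.55 and -0.71. Of the HIF-1 prolyl hydroxylases, EGLN1 and EGLN3 had log2 fold changes of 1.50 and 2.27, and EGLN2 was at -0.05 (adjusted p = 0.819, edgeR). TET3, a DNA demethylase, had a log2 fold change of 0.95, and HIF1AN, the asparaginyl hydroxylase of HIF-1, was at 0.14 (adjusted p = 0.185, edgeR).

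The substrates were followed through the collagen chain genes. Of 41 collagen chain genes 27 were tested, 5 rose and 4 fell, beside 18.4% and 15.0% of all genes, and their median log2 fold change was 0.06. COL1A1 and COL1A2, the chains of type I collagen, were not called, at -0.40 (adjusted p = 0.471) and 0.13 (adjusted p = 0.904, edgeR). In control replicates 1, 2 and 3, COL1A1 had 45, 38 and 19 counts and COL1A2 had 33, 23 and 3. Among the controls both were thus lowest in replicate 3, as were PDGFRA, PDGFRB, DCN and LUM, and the reason was not tested. Among the type IV chains of basement membrane, COL4A1 and COL4A2 fell by 0.80 and 1.01 on the log2 scale, COL4A4 rose by 0.50, and COL4A3 was at -0.02 (adjusted p = 0.959, edgeR). COL22A1, the most abundant chain gene by CPM, had 260, 263 and 272 CPM in control and 220 and 200 CPM in co-culture, and fell by 0.34 on the log2 scale (adjusted p = 0.0111, edgeR). COL16A1 (0.77) and COL14A1 (2.74), chains that associate with fibrils, rose. COL14A1 was low, with 3 to 9 counts in control and 30 and 34 in co-culture. Without co-cultured replicate 1 the numbers were 2 higher and 1 lower, and without co-cultured replicate 2 there were 3 higher and the falls were lost. Of 12 tested genes of propeptide processing and elastic fibres, 1 rose and 4 fell, beside 18.4% and 15.0% of all genes. FN1, fibronectin, rose by 1.30, a call that was lost with counts that ignored strand, and the procollagen protease ADAMTS14 and the enhancer PCOLCE2 fell by 0.73 and 1.34 on the log2 scale. Among those that fell, POSTN had 11, 15 and 3 counts in control and 0 in co-culture. BMP1, which releases active LOX, was at 0.04 (adjusted p = 0.906, edgeR), and ELN, the elastin substrate of LOX and LOXL1, had 0 to 2 counts in every library. The falls of this list were lost without co-cultured replicate 1, and without co-cultured replicate 2 there was 1.

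Genes known to be induced by hypoxia were followed as a list, which was chosen with earlier results of these data known. Of 29 tested outside the 10 genes, 26 rose, beside 18.4% of all genes, and 3 (ALDOA, ANKRD37 and CA12) were not called. Their median log2 fold change was 1.58, and 22 met the DEG criterion upward, beside 5.44% of all genes. The glycolytic enzyme TPI1 had a log2 fold change of 1.47, the angiogenic factor VEGFA one of 1.59 and the mTOR inhibitor DDIT4 one of 2.30. ALDOA was listed at only 3.93, 4.70 and 6.35 CPM in control, where TPI1 had 525, 458 and 500 CPM. The reason for its low count was not tested. PLOD2 and LOX, at 1.86 and 1.72, lay above the median of the hypoxia-inducible genes, and P4HA1, P4HA2 and PLOD1, at 1.13 to 1.23, lay below it. LOXL1 and PLOD3, at 0.76 and 0.55, lay farther below it. The part of hypoxia in the changes of the collagen-modifying genes was not tested, and oxygen was not among the measurements. TGF-β and YAP also drive matrix genes. Of 12 tested genes on a list of their targets and the ligands TGFB1, TGFB2 and TGFB3, 3 rose and 3 fell. These stood beside 18.4% and 15.0% of all genes, and the median was -0.15. The number of falls was smaller without co-cultured replicate 2. AMOTL2 (log2 fold change -1.94), TGFB2 (-1.43) and TAGLN (-1.20) fell, and TGFB1 (1.63) and SKIL (0.70) rose. CTGF, a YAP target, also rose, 6.08-fold.

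**Figure D5:**
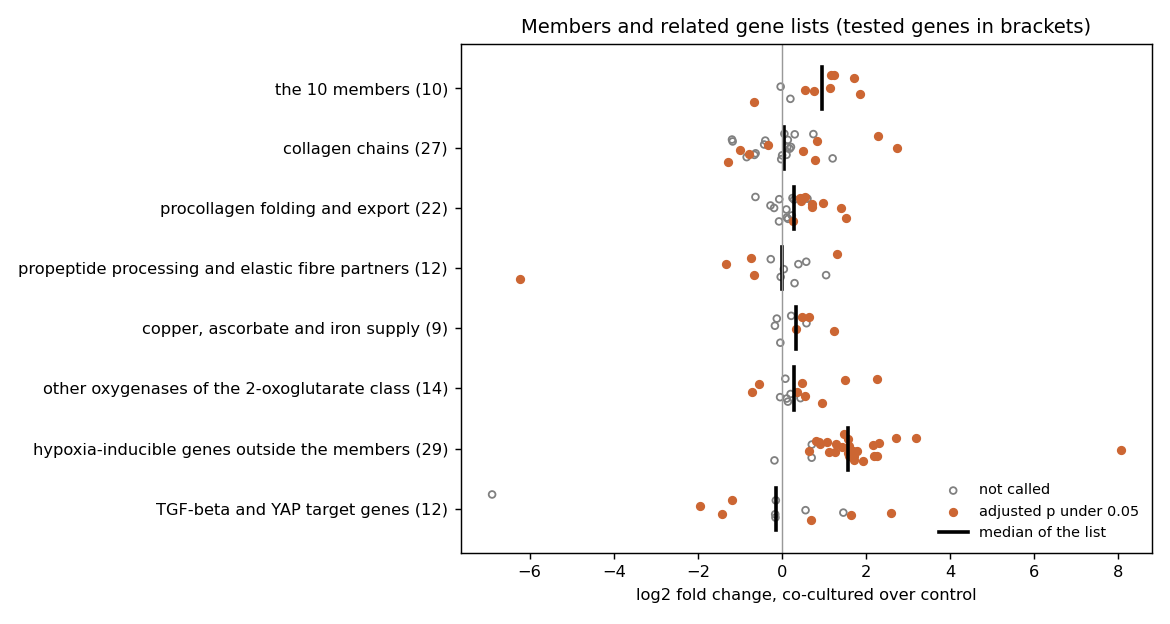
Log2 fold change of every tested gene of the 10 collagen-modifying genes and of 7 related lists, with filled points for adjusted p under 0.05, open points for the rest and a bar at each median. The medians are 0.95 for the 10 genes, 1.58 for the hypoxia-inducible genes and 0.06 for collagen chains. Points beyond 6 on either side are ANGPTL4, POSTN and AXL, which had 0 counts in all libraries of a group, and whose fitted values are no measure of size.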

How the data were processed

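RNA-Seq reads of 3 control and 2 co-cultured NCI-H209 libraries were processed by the authors. Their processing notes name CASAVA 1.8, STAR 2.6.1b, DESeq2 and GRCh38. The authors deposited raw counts per gene in STAR's layout (unstranded and 1 column per strand), and a comparison table whose mean columns hold normalized signal. Its fold changes and p-values were not used. The deposited control means matched median-ratio scaled counts of the strand used here within 1% for 32793 of 32793 genes.

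Counts of the expected strand were filtered with filterByExpr, scaled by TMM and tested with edgeR 4.0.16 (R 4.3.3; quasi-likelihood F test, Benjamini-Hochberg over 20360 genes). CPM are TMM-scaled. Standard errors were taken as |log2 fold change| / √F. DEGs had an absolute log2 fold change above 1 and an unadjusted p under 0.05, the fold change of the study's criterion being read on the log2 scale. Exon lengths and overlaps came from GENCODE on GRCh38, promoter windows from RefSeq (GRCh38.p14, used for sequence only). Shares were compared with two-sided exact permutation tests. Counts of 3 or fewer in every library of a group were taken as the floor, which covers counting error only. The steps were tested on simulated data. Plots were drawn with matplotlib 3.10.9.

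The 10 genes and the 10 lists were chosen with earlier results of these data known. EGLN3, COL1A1, COL3A1 and ACTA2 stand in 2 lists each. Named list genes are the 3 with the smallest p among those called and direct partners of the 10 genes. POSTN, ANGPTL4, AXL, CHGA, NEUROD1, INSM1, DLL3, COL4A3, COL4A4, COL22A1, EGLN2, P4HTM, OGFOD3, CTGF, TGFB2, TAGLN, ALDOA, ANKRD37, CA12 and the remaining markers were named after their values were seen. The values of 1 further marker are not reported here. Medians of lists were the same with genes at the floor set to their bound. Alternatives were another tool (DESeq2 1.42.0), scaling by median ratio or upper quartile, filters of at least 1 count in any and at least 10 counts in every library, unstranded counts, a replicate block and each library left out in turn. The length of the principal transcript was added after the data were seen.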

Additional observations from a re-analysis of the deposited data

How the results depend on the processing

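PLOD2, P4HA2, PLOD1 and LOX were called higher under each of 12 alternatives, and the calls of the other 4 were lost under some. Over the alternatives the adjusted p (edgeR, or DESeq2 in 1 of them) ran from 1.81e-30 to 0.105 for P4HA1, from 0.000164 to 0.0637 for PLOD3, from 0.00109 to 0.0681 for LOXL1, from 0.00248 to 0.173 for LOXL4 and from 7.42e-09 to 0.0347 for LOX. Leaving out each library in turn, the number of genes called higher ran from 4 to 7, the number called lower from 0 to 1, and the number meeting the DEG criterion upward from 3 to 5, with the lowest upward numbers without co-cultured replicate 1. The number called lower was 0 with a replicate block and 0 with unstranded counts. The labels do not say that equal numbers mark pairs, and the numbers were not taken as pairs. The deviations of same-numbered libraries from their group means had r of -0.11 and -0.067. With 2 co-cultured libraries these deviations mirror each other, and the crossed libraries gave 0.11 and 0.067, so this check cannot decide on pairing. With the replicate block, LOXL1 (0.69, adjusted p = 0.0511, edgeR) and LOXL4 (-0.62, adjusted p = 0.0519, edgeR) were no longer called, and no other call on the 10 genes changed. Over all genes the block gave 2771 higher and 2053 lower in place of 3750 and 3059, and leaving out each library gave 1749 to 5295 higher and 985 to 4602 lower. Upper-quartile scaling moved the median of all genes to -0.11 and gave 3076 higher and 3929 lower, with the calls on the 10 genes as before. The sign of P4HA3 turned with unstranded counts (-0.34), and its change ran from -0.0062 to 0.50 with each library left out, while that of LOXL2 ran from -0.12 to 0.15. The difference in the LOX share was 5.37 percentage points with unstranded counts. These causes were not tested. With 2 co-cultured libraries and under 50 counts of P4HA3 per library, small changes in the lowest genes were not detectable at this depth.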

Other observations

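The genes whose levels moved most like PLOD2, P4HA1 and LOX over the 5 libraries were sought among 10967 protein-coding genes with a mean of at least 5 CPM, by the root mean square difference of log2 CPM deviations. This is a description over 5 libraries of 2 groups. The nearest to PLOD2 were BDKRB2, a bradykinin receptor (difference 0.039), CXCR4, a chemokine receptor (0.083), FOXD1 (0.10), FAM162A (0.12) and NFIL3 (0.12). CXCR4 had 32.9, 34.9 and 40.1 CPM in control and 159 and 99.3 CPM in co-culture. The nearest to LOX were GBE1, the glycogen branching enzyme (0.052), SLC6A8, the creatine carrier (0.054), FAM162A (0.087), HERC3 (0.088) and CXCR4 (0.10), so FAM162A and CXCR4 were near both. The nearest to P4HA1, whose controls differed more, were PYGL, liver glycogen phosphorylase (0.089), CASKIN1 (0.091), ISLR2 (0.11), ZNF385A (0.14) and WDR45B (0.14). PYGL had 7.44, 11.3 and 14.3 CPM in control and 27.3 and 20.9 CPM in co-culture, with control replicate 1 lowest as for P4HA1.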
